A study of Vitis vinifera with 36 samples.

Results

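The 8 genes described here were listed as DXS, DXR, CMK, HDS and HDR genes of the methylerythritol phosphate (MEP) pathway, which supplies the precursors of the Muscat terpenes. They were selected by gene ID and make up 8 of the 28119 genes listed in any library. Total RNA of de-seeded berries was sequenced from ‘Muscat Hamburg’, a black table grape with Muscat aroma, and from ‘Victoria’, a white table grape. Both varieties of Vitis vinifera were sampled in the winter season and the summer season of 2014. Berries were taken at E-L 35 (the beginning of veraison, when they soften and colour), at E-L 36 and at harvest (E-L 38), where E-L is the modified Eichhorn-Lorenz scale. Each of the 12 groups had 3 libraries, 36 in all. All vines were grafted on SO4 rootstock and grew under a rain shelter in southern China. They were pruned and forced with hydrogen cyanamide before each crop, though on different buds, so the winter berries and the summer berries were successive crops of the same vines and differed in calendar time, weather, forcing and crop order together. Only 1 vintage was sequenced, and the p-values cover the spread between replicate libraries within a crop, not the spread between years.

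The MEP pathway runs in plastids and makes isopentenyl diphosphate and dimethylallyl diphosphate, the building blocks of monoterpenes, carotenoids and the side chain of chlorophyll. DXS (1-deoxy-D-xylulose 5-phosphate synthase) joins pyruvate and glyceraldehyde 3-phosphate in the first step and is regarded as a main control point of the pathway. The Muscat aroma of grapes comes from monoterpenols such as linalool, geraniol and nerol, and a DXS gene on chromosome 5 lies at the major locus for this aroma in genetic mapping. The DXS copy whose ID carries this chromosome is VIT_205s0020g02130. The enzyme names came with the list of genes, since the deposited lists give gene IDs without names. The values do not separate the alleles of a gene, and monoterpenols were not among the data analysed here.

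FPKM (fragments per kilobase of transcript, relative to the mapped reads of the library) is a level that can be compared between genes and is given for single libraries. Differences between groups are log2 fold changes ± SE from edgeR's quasi-likelihood test of the estimated counts, after scaling by the trimmed mean of M values (TMM). P-values were adjusted by the Benjamini-Hochberg method over the 19736 genes that passed a filter on low counts. A gene was called higher or lower at an adjusted p of at most 0.05 together with a fold change of at least 2. FPKM values were not scaled by TMM, so the ratio of 2 FPKM means can differ from the fold change of the test. This was most visible for the summer berries at E-L 35, where the median over all genes of ‘Muscat Hamburg’ minus ‘Victoria’ was -0.31 when libraries were scaled by their size alone, against -0.02 with TMM.

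The total estimated count per library was between 5624449 and 18606068, with a median of 10599908. The libraries matched their variety labels, in that the summed level of 9 anthocyanin genes of black grapes was 30.2 to 177 FPKM in the 18 ‘Muscat Hamburg’ libraries, against 0.17 to 3.28 FPKM in the 18 ‘Victoria’ libraries. The spread between replicates was unequal. Counting error alone gives a chi-square per degree of freedom near 1. It was 1.45 for replicates 2 and 3 of the ‘Victoria’ winter berries at E-L 38. For replicates 1 and 2 of the ‘Victoria’ summer berries at E-L 36 it was 57.8. How far the closest replicates show the spread between berry samples was not tested. Of the 36 libraries, 33 correlated best with a library of their own group. The exceptions were replicate 1 of the ‘Victoria’ summer berries at E-L 36, replicate 1 of the ‘Victoria’ summer berries at E-L 38 and replicate 1 of the ‘Muscat Hamburg’ summer berries at E-L 36, each of which was closest to a library of the other of these stages in the same variety and season. Where a call changed without these 3 libraries, both values are given.

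Of the 8 members, 7 passed the filter on low counts and were tested. The member that did not pass was the DXS copy VIT_211s0052g01780, which was listed at 0 in 17 of the 36 libraries and reached no more than 17.91 estimated counts in any library. It was at 0.99, 0.61 and 0.33 FPKM in the ‘Victoria’ winter berries at E-L 38, and no library of another group was above 0.34 FPKM.

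HDR (4-hydroxy-3-methylbut-2-enyl diphosphate reductase), the enzyme of the last step, had by far the most abundant transcript of the 8 members, with 214 to 549 FPKM and a median of 322 FPKM over the 36 libraries. HDS (4-hydroxy-3-methylbut-2-enyl diphosphate synthase), the enzyme before it, followed at 39.3 to 96.8 FPKM. Other members were at lower levels, with medians of 26.0 FPKM for DXS VIT_205s0020g02130, 10.2 FPKM for DXS VIT_204s0008g04970, 17.1 FPKM for DXR and 19.5 FPKM for CMK. The spread over the groups was unequal as well. The highest group mean was 54.0 times the lowest for DXS VIT_211s0052g01730 and 7.16 times the lowest for DXS VIT_205s0020g02130, but only 1.50 times the lowest for CMK.

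**Figure D1:**
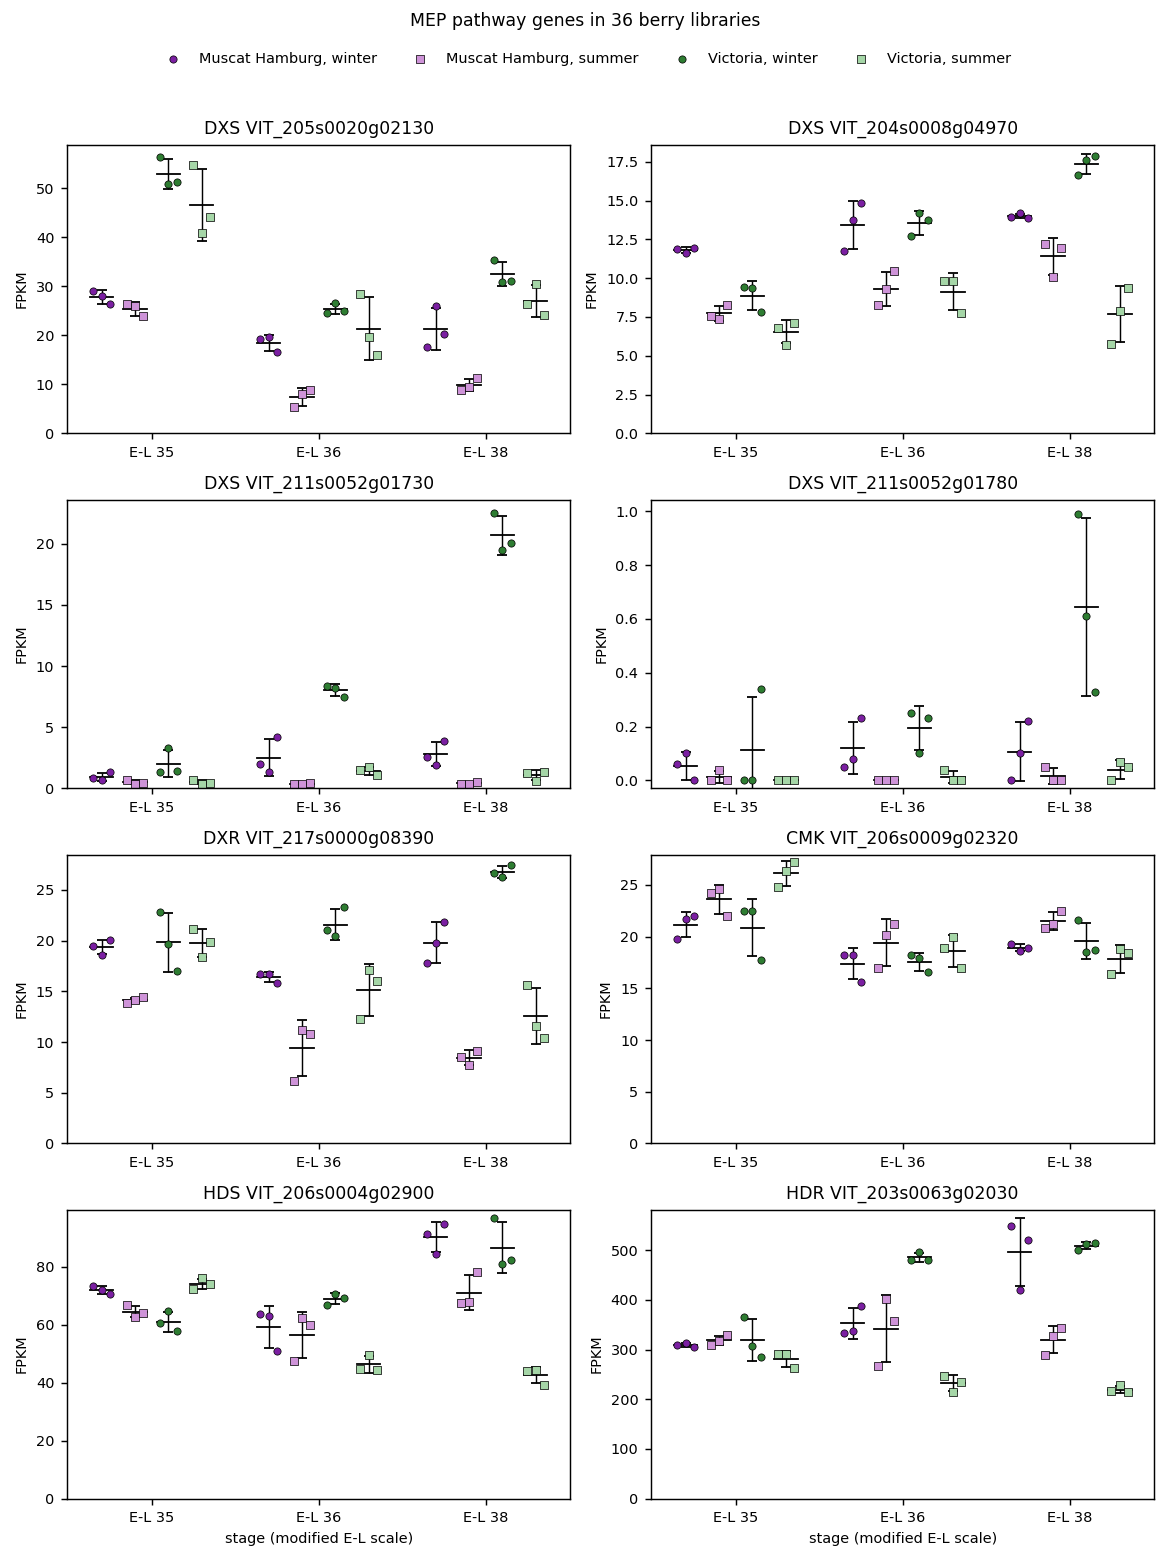
FPKM of the 8 MEP pathway genes (y axis, from 0 in 7 panels and from just below 0 for VIT_211s0052g01780) at each stage (x axis) in the 36 libraries; points are libraries, horizontal bars are group means and error bars are SD (n = 3). VIT_205s0020g02130 lay lower in ‘Muscat Hamburg’ than in ‘Victoria’ at every stage of the same season, and VIT_211s0052g01730 stood out in the ‘Victoria’ winter berries, with 19.5 to 22.5 FPKM at E-L 38.

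The Muscat variety had less, not more, transcript of the DXS copy VIT_205s0020g02130. At E-L 35 of the winter season its level was 29.2, 28.1 and 26.4 FPKM in the ‘Muscat Hamburg’ berries, against 56.4, 51.0 and 51.3 FPKM in those of ‘Victoria’. At E-L 36 of the winter season it was 19.2, 19.7 and 16.6 FPKM in the ‘Muscat Hamburg’ berries and 24.7, 26.5 and 24.9 FPKM in those of ‘Victoria’. At E-L 38 it was 17.7, 26.0 and 20.3 FPKM in the ‘Muscat Hamburg’ winter berries and 35.4, 30.9 and 31.2 FPKM in the ‘Victoria’ winter berries. The winter libraries of the varieties did not overlap at any stage. The log2 fold changes of the winter season were -0.84 ± 0.16 (adjusted p = 0.000217) at E-L 35, -0.42 ± 0.16 (adjusted p = 0.0488) at E-L 36 and -0.52 ± 0.16 (adjusted p = 0.0167) at E-L 38, all short of a 2-fold difference. The adjusted p at E-L 36 was above 0.05 under 12 of 18 alternatives, up to 0.123, and that at E-L 38 under 2 of 18, up to 0.0918. In bulk berries, fewer cells that express a gene and less RNA per cell cannot be told apart.

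In the summer season the gap was widest at the later stages. At E-L 35 the level of VIT_205s0020g02130 was 26.4, 25.9 and 23.9 FPKM in the ‘Muscat Hamburg’ summer berries, against 54.8, 40.9 and 44.1 FPKM in the ‘Victoria’ summer berries. At E-L 36 it was 5.37, 7.97 and 8.82 FPKM in the ‘Muscat Hamburg’ summer berries and 28.5, 19.6 and 16.1 FPKM in the ‘Victoria’ summer berries. At E-L 38 it was 8.82, 9.52 and 11.3 FPKM in the ‘Muscat Hamburg’ summer berries, against 26.4, 30.6 and 24.2 FPKM in the ‘Victoria’ summer berries. Again no ‘Muscat Hamburg’ library reached the lowest ‘Victoria’ library. The gene was called lower at E-L 36 (-1.39 ± 0.17, adjusted p = 3.09e-07) and at E-L 38 (-1.45 ± 0.17, adjusted p = 9.6e-08), while at E-L 35 the difference was -0.59 ± 0.16 (adjusted p = 0.00388). Without the 3 libraries that were closest to another group, the difference at E-L 36 was -0.92 (adjusted p = 2.31e-05), under the 2-fold threshold. VIT_205s0020g02130 was therefore lower in ‘Muscat Hamburg’ with no overlap in all 6 variety comparisons, a pattern shared by 5.46% of the genes tested.

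Over the 12 groups, the level of VIT_205s0020g02130 fell into a few steps. The lowest were the ‘Muscat Hamburg’ summer berries at E-L 36 and E-L 38, with means of 7.39 ± 1.80 and 9.90 ± 1.31 FPKM (SD, n = 3), whose ranges overlapped with each other and stayed under those of the other 10 groups. Then came 7 groups with means between 18.5 and 27.9 FPKM, in which each group overlapped with the next. The ‘Victoria’ winter berries at E-L 38 stood above them at 32.5 ± 2.49 FPKM. The highest were the ‘Victoria’ berries at E-L 35, with 46.6 ± 7.30 FPKM in the summer season and 52.9 ± 3.05 FPKM in the winter season, which overlapped with each other.

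Where the variety difference of the DXS copy VIT_204s0008g04970 had an adjusted p under 0.05, it was positive. In the winter season its level was 11.9, 11.6 and 11.9 FPKM in the ‘Muscat Hamburg’ berries at E-L 35, against 9.43, 9.38 and 7.79 FPKM in those of ‘Victoria’. At E-L 38 of the summer season it was 12.2, 10.1 and 11.96 FPKM in the ‘Muscat Hamburg’ berries, against 5.75, 7.91 and 9.36 FPKM in the ‘Victoria’ berries. In both of these comparisons every ‘Muscat Hamburg’ library was above every ‘Victoria’ library, as in 18.2% of the variety tests of all genes. The log2 fold changes were 0.50 ± 0.13 (adjusted p = 0.00304) and 0.58 ± 0.13 (adjusted p = 0.000483), and at E-L 35 of the summer season 0.52 ± 0.12 (adjusted p = 0.00113), none of them a 2-fold difference. With scaling by library size alone the value at E-L 35 of the summer season was 0.24 (adjusted p = 0.0826). At E-L 38 of the winter season the libraries were apart in the other direction, with 13.9, 14.2 and 13.9 FPKM in the ‘Muscat Hamburg’ berries and 16.65, 17.6 and 17.8 FPKM in the ‘Victoria’ berries. The log2 fold change there was -0.22 ± 0.12 (adjusted p = 0.18). A gap downward was seen in 30.1% of the variety tests of all genes. At E-L 36 the differences were 0.11 in winter and 0.25 in summer, with adjusted p-values above 0.05.

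The DXS copy VIT_211s0052g01730 was barely expressed in most groups and came up in the ‘Victoria’ winter berries. At E-L 36 of the winter season its level was 1.97, 1.33 and 4.22 FPKM in the ‘Muscat Hamburg’ berries, against 8.37, 8.20 and 7.46 FPKM in those of ‘Victoria’. At E-L 38 it was 2.54, 1.94 and 3.88 FPKM in the ‘Muscat Hamburg’ winter berries, against 22.5, 19.5 and 20.1 FPKM in the ‘Victoria’ winter berries. The lowest ‘Victoria’ winter library at E-L 38 was thus far above the highest ‘Muscat Hamburg’ library. A gap in this direction, of any size, was seen in 30.1% of the variety tests of all genes. VIT_211s0052g01730 was called lower in ‘Muscat Hamburg’ at both stages, with -1.59 ± 0.33 (adjusted p = 0.000344) at E-L 36 and -2.81 ± 0.33 (adjusted p = 1.62e-07) at E-L 38.

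In the summer season the same copy was near the lower end of what these libraries show. At E-L 36 it had 0.35, 0.38 and 0.42 FPKM in the ‘Muscat Hamburg’ summer berries, from 9 to 11 estimated counts, against 1.54, 1.72 and 1.06 FPKM in the ‘Victoria’ summer berries, from 27 to 50.85 estimated counts. At E-L 38 it had 0.37, 0.35 and 0.53 FPKM in the ‘Muscat Hamburg’ summer berries and 1.26, 0.62 and 1.37 FPKM in the ‘Victoria’ summer berries. The libraries did not overlap at either stage, a gap downward seen in 30.1% of the variety tests of all genes. Both were called lower in ‘Muscat Hamburg’, with -1.75 ± 0.46 (adjusted p = 0.00318) at E-L 36 and -1.38 ± 0.46 (adjusted p = 0.0173) at E-L 38. With limma on log2(FPKM + 1), a scale that understates the change of low genes, the difference at E-L 36 was -0.81 (adjusted p = 0.00626), under 2-fold. The call at E-L 38 was lost, at adjusted p-values of 0.0517 to 0.0752, when any of replicates 1 and 3 of the ‘Victoria’ berries or replicates 1 and 2 of the ‘Muscat Hamburg’ berries was left out, and at 0.0657 without the 3 libraries closest to another group. Neither season gave a call at E-L 35, where the differences of this copy were -0.97 ± 0.40 (adjusted p = 0.0683) in winter and 0.29 ± 0.44 (adjusted p = 0.629) in summer.

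Estimated counts of DXS VIT_205s0020g02130, VIT_211s0052g01730 and VIT_211s0052g01780 were not whole numbers in 20, 19 and 19 of the 36 libraries (beyond a tolerance of 0.05), so that reads were divided between these and other similar genes. The division between the neighbouring copies VIT_211s0052g01730 and VIT_211s0052g01780 is therefore uncertain. Adding them together, an alternative chosen after the data were seen, left the differences of the winter season at -1.56 (E-L 36) and -2.79 (E-L 38) and changed no call. Which genes shared reads with VIT_205s0020g02130 was not looked at, so the division of its reads is uncertain too. The estimated counts of VIT_204s0008g04970, DXR, CMK and HDS were whole in every library, and those of HDR were not whole in 3.

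The DXS copies together gave 40.7 ± 1.15, 34.6 ± 1.43 and 38.2 ± 4.03 FPKM (SD, n = 3) in the ‘Muscat Hamburg’ winter berries at the 3 stages in turn, against 63.9 ± 3.17, 47.2 ± 1.66 and 71.2 ± 3.75 FPKM in the ‘Victoria’ winter berries. In the summer season the sums were 33.7 ± 0.997, 17.1 ± 2.90 and 21.7 ± 1.98 FPKM in the ‘Muscat Hamburg’ berries, against 53.7 ± 7.86, 31.97 ± 7.55 and 35.9 ± 2.97 FPKM in the ‘Victoria’ berries. The sum was lower in ‘Muscat Hamburg’ in every library at the same stage and season. The make-up of the sum shifted too. VIT_205s0020g02130 gave 45.5% ± 3.80 of it in the ‘Muscat Hamburg’ summer berries at E-L 38 and 75.4% ± 5.43 in the ‘Victoria’ summer berries, whereas its share at E-L 38 of the winter season was 55.4% ± 5.36 in ‘Muscat Hamburg’ and 45.6% ± 1.07 in ‘Victoria’. There VIT_211s0052g01730 gave 7.39% ± 2.77 of the sum in ‘Muscat Hamburg’ and 29.0% ± 0.703 in ‘Victoria’. Sums and shares are descriptions of FPKM values and were not tested.

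**Figure D2:**
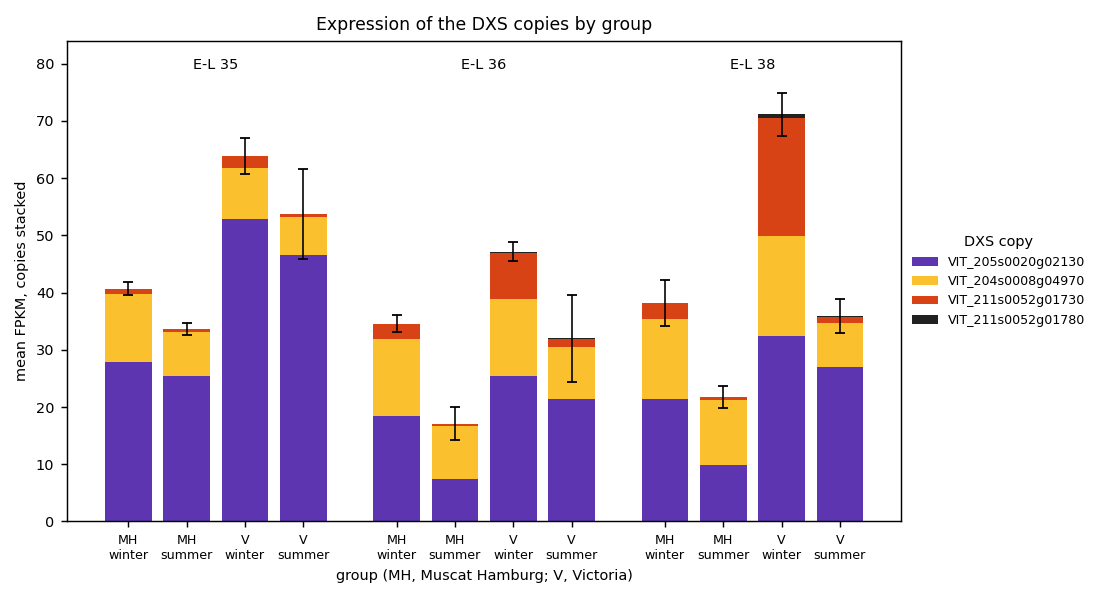
Mean FPKM of the 4 DXS copies stacked (y axis, from 0) in the 12 groups (x axis; MH, ‘Muscat Hamburg’; V, ‘Victoria’); error bars are the SD of the summed level (n = 3). The sum ran between 17.1 and 40.7 FPKM in ‘Muscat Hamburg’ and between 31.97 and 71.2 FPKM in ‘Victoria’, and VIT_211s0052g01730 reached its largest share, 29.0%, in the ‘Victoria’ winter berries at E-L 38.

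DXR (1-deoxy-D-xylulose 5-phosphate reductoisomerase) converts the product of DXS to methylerythritol phosphate. Its level at E-L 38 of the winter season was 17.8, 19.8 and 21.8 FPKM in the ‘Muscat Hamburg’ berries, against 26.7, 26.3 and 27.4 FPKM in those of ‘Victoria’. At E-L 38 of the summer season it was 8.56, 7.70 and 9.13 FPKM in the ‘Muscat Hamburg’ berries and 15.7, 11.53 and 10.4 FPKM in the ‘Victoria’ berries. The ‘Muscat Hamburg’ libraries were below the ‘Victoria’ libraries without overlap in 5 of the 6 comparisons, with E-L 35 of the winter season as the exception; such a gap downward was seen in 30.1% and upward in 18.2% of the same tests over all genes. Only the summer differences of -0.50 ± 0.15 (E-L 36, adjusted p = 0.0102) and -0.58 ± 0.15 (E-L 38, adjusted p = 0.00299) had an adjusted p under 0.05, and DXR was called in no variety comparison. The value at E-L 36 was -0.28 (adjusted p = 0.104) without replicate 1 of the ‘Muscat Hamburg’ berries. CMK (4-diphosphocytidyl-2-C-methyl-D-erythritol kinase), which phosphorylates an intermediate in the middle of the pathway, stayed between 15.6 and 27.2 FPKM in all libraries. Its variety differences were between 0.03 and 0.27, and those with an adjusted p under 0.05 were 0.22 ± 0.09 (0.0427) at E-L 36 and 0.27 ± 0.09 (0.0119) at E-L 38 of the summer season. With scaling by library size alone the value of CMK at E-L 36 was 0.06 (adjusted p = 0.64). The adjusted p of CMK at E-L 38 was above 0.05 under 2 of 18 alternatives, up to 0.082. At E-L 35 of the summer season CMK was at 24.2, 24.6 and 22.0 FPKM in ‘Muscat Hamburg’, against 24.8, 26.4 and 27.2 FPKM in ‘Victoria’. These FPKM values were apart downward, although the log2 fold change with TMM was 0.14 ± 0.09 (adjusted p = 0.192).

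HDS and HDR were higher in the ‘Muscat Hamburg’ summer berries at E-L 36 and E-L 38 with an adjusted p under 0.05. At E-L 36 of the summer season HDS reached 47.3, 62.3 and 59.8 FPKM in the ‘Muscat Hamburg’ berries, against 44.8, 49.5 and 44.5 FPKM in those of ‘Victoria’. At E-L 38 of the summer season it was 67.5, 67.6 and 78.0 FPKM in the ‘Muscat Hamburg’ berries, against 44.0, 44.4 and 39.3 FPKM in the ‘Victoria’ berries. The libraries overlapped at E-L 36 and were apart at E-L 38, a gap upward seen in 18.2% of the variety tests of all genes. The log2 fold changes of HDS were 0.46 ± 0.08 (adjusted p = 3.6e-05) at E-L 36 and 0.76 ± 0.08 (adjusted p = 1.57e-08) at E-L 38, and 0.32 ± 0.08 (adjusted p = 0.00248) at E-L 35 of the winter season. The adjusted p of this winter value was above 0.05 under 3 of 18 alternatives, up to 0.0592 with scaling by library size alone (0.24). At E-L 35 of the summer season HDS was at 66.6, 62.8 and 64.0 FPKM in the ‘Muscat Hamburg’ berries, against 72.4, 75.9 and 74.0 FPKM in the ‘Victoria’ berries, so the FPKM values were apart in the other direction. Its log2 fold change there was 0.08 ± 0.08 (adjusted p = 0.413) with TMM and -0.20 (adjusted p = 0.0822) with scaling by library size alone.

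HDR at E-L 36 was at 268, 402 and 358 FPKM in the ‘Muscat Hamburg’ summer berries, against 247, 215 and 235 FPKM in the ‘Victoria’ summer berries. At E-L 38 of the summer season it was at 289.6, 328 and 343 FPKM in the ‘Muscat Hamburg’ berries, against 216, 228 and 214 FPKM in the ‘Victoria’ berries. Every ‘Muscat Hamburg’ library was higher at both stages, as in 18.2% of the variety tests of all genes. The log2 fold changes of HDR were 0.72 ± 0.13 (adjusted p = 0.00011) and 0.55 ± 0.13 (adjusted p = 0.00149), again under 2-fold. At E-L 36 of the winter season the sign was the other way, with 334, 337 and 388 FPKM in the ‘Muscat Hamburg’ berries, 482, 497 and 480 FPKM in the ‘Victoria’ berries and a log2 fold change of -0.41 ± 0.13 (adjusted p = 0.0185). This adjusted p was above 0.05 under 3 of 18 alternatives, up to 0.103. At E-L 35 of the summer season the difference of HDR was 0.46 ± 0.13 (adjusted p = 0.0058) with TMM and 0.18 (adjusted p = 0.198) with scaling by library size alone.

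Counted over the variety comparisons, 6 of 42 member tests (14.3%) were called lower in ‘Muscat Hamburg’, against 9.35% of the tests of all genes. There was none at E-L 35 in winter (all genes 8.25%) or in summer (12.2%). The calls fell on 1 of 7 members at E-L 36 of winter (all genes 7.97%), 1 at E-L 38 of winter (6.54%), 2 at E-L 36 of summer (10.3%) and 2 at E-L 38 of summer (10.7%), and each was a DXS copy. No member was called higher in ‘Muscat Hamburg’ by edgeR in any of the 42 tests, against 7.1% of the tests of all genes, although 11 had an unadjusted p under 0.05 with a positive sign. DESeq2 and limma also called none higher. The 11 positive differences past an adjusted p of 0.05 alone (18% of the tests of all genes) belonged to DXS VIT_204s0008g04970, CMK, HDS and HDR, and the 13 negative ones (all genes 18.3%) to DXS VIT_205s0020g02130, DXS VIT_211s0052g01730, DXR and, at E-L 36 of winter, HDR. The median log2 fold change of the 7 members was lowest at E-L 36 of winter (-0.36, all genes 0.01) and highest at E-L 38 of summer (0.27, all genes -0.01). Each library enters 1 variety, 1 season and at least 1 stage comparison, so comparisons of different kinds share libraries.

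**Figure D3:**
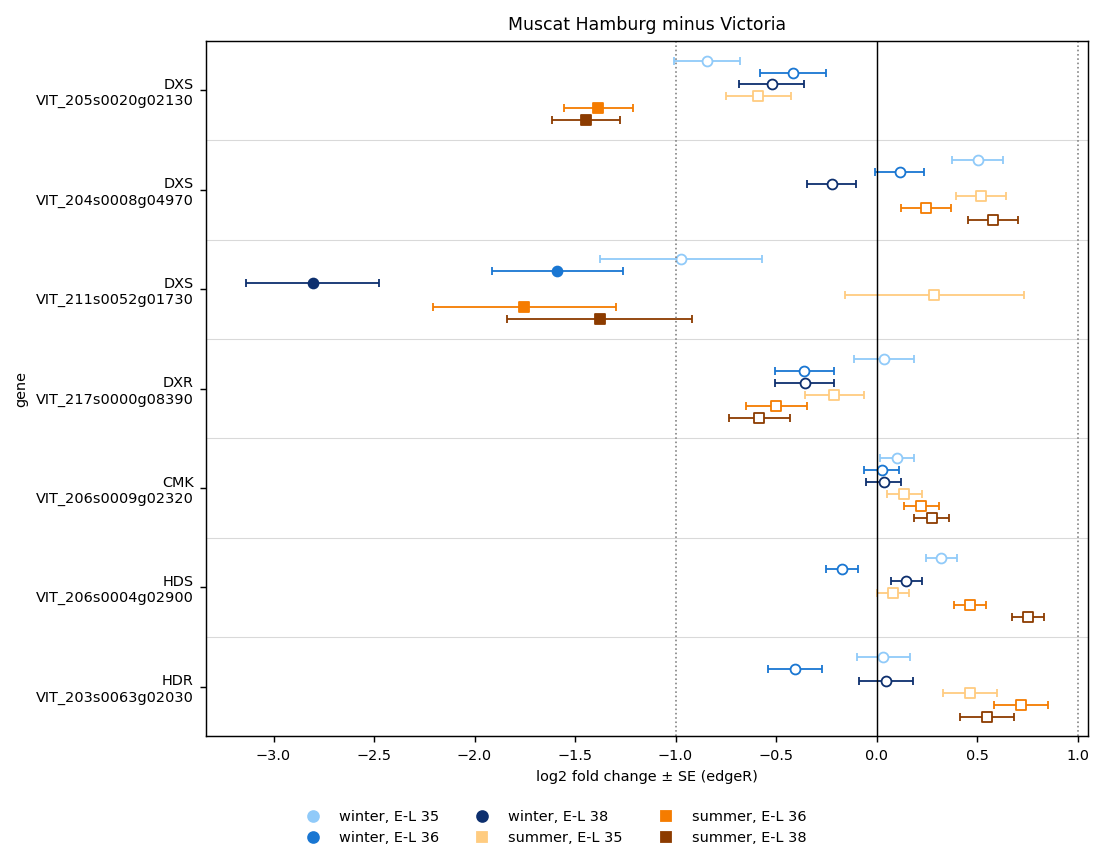
Log2 fold change of ‘Muscat Hamburg’ minus ‘Victoria’ ± SE (x axis; dotted lines mark 2-fold) for the 7 members tested (y axis) in the 6 combinations of season and stage; filled symbols passed an adjusted p of 0.05 and a 2-fold difference. VIT_205s0020g02130 lay left of 0 in all 6 comparisons (-0.42 to -1.45), and HDS and HDR lay right of 0 at E-L 36 and E-L 38 of summer; the HDS value at E-L 35 of summer, 0.08, turned to -0.20 with scaling by library size alone.

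The season comparisons ask whether the pathway differed between the cool winter crop and the hot summer crop of a variety. Transcripts of the pathway were more abundant in the winter season berries wherever they passed the test. Of 42 member tests, 13 (31.0%) were called higher in winter, against 8.68% of the tests of all genes. None was called lower by edgeR, DESeq2 or limma, while 2 had an unadjusted p under 0.05 with a negative sign, both of CMK, and 10.1% of the tests of all genes were called lower. At an adjusted p of 0.05 without the 2-fold condition, 24 tests were higher in winter and 1 lower, against 21.1% of all genes in either direction taken singly.

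In ‘Muscat Hamburg’ the season made no call at E-L 35 (all genes 4.15% higher), where 2 members had an unadjusted p under 0.05 with a positive sign and 1 with a negative sign. At E-L 36, 2 of 7 members were called higher (all genes 9.8%) and at E-L 38, 3 of 7 (all genes 8.9%). VIT_205s0020g02130 was among them at both stages. Its levels of 19.2, 19.7 and 16.6 FPKM in the winter berries at E-L 36 stood against 5.37, 7.97 and 8.82 FPKM in the summer berries, a log2 fold change of 1.25 ± 0.17 (adjusted p = 1.35e-06). At E-L 38 the log2 fold change of VIT_205s0020g02130 was 1.17 ± 0.17 (adjusted p = 2.08e-06). The copy VIT_211s0052g01730 was higher in winter by 2.67 ± 0.43 (adjusted p = 1.4e-05) at E-L 36 and by 2.77 ± 0.42 (adjusted p = 4.47e-06) at E-L 38, in both cases with every winter library above every summer library, as in 25.5% of the season tests of all genes.

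DXR was the third gene called at E-L 38 in ‘Muscat Hamburg’. It had 17.8, 19.8 and 21.8 FPKM in the winter berries, against 8.56, 7.70 and 9.13 FPKM in the summer berries, a log2 fold change of 1.30 ± 0.15 (adjusted p = 7.93e-08). At E-L 36 its season effect was 0.72 ± 0.15 (adjusted p = 0.000319), and at E-L 35 it was 0.40 ± 0.15 (adjusted p = 0.0626). HDS and HDR differed little between the seasons until harvest in this variety. At E-L 38 HDS was higher in winter by 0.40 ± 0.08 (adjusted p = 0.000129) and HDR by 0.70 ± 0.13 (adjusted p = 0.000103), with 549, 420.2 and 521 FPKM of HDR in the winter berries and 289.6, 328 and 343 FPKM in the summer berries.

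In ‘Victoria’, 1 of 7 members was called higher in winter at E-L 35 (all genes 8.44%), 2 at E-L 36 (9.96%) and 5 at E-L 38 (10.9%). VIT_211s0052g01730 was called at all 3 stages, with 2.08 ± 0.41 (adjusted p = 0.000177), 2.51 ± 0.35 (adjusted p = 8.77e-07) and 4.20 ± 0.37 (adjusted p = 1.8e-10) in the order of the stages. The first was 0.95 (adjusted p = 0.00133) with limma on log2(FPKM + 1). The last was the largest season effect of any member tested. There the gene had 22.5, 19.5 and 20.1 FPKM in the winter berries, against 1.26, 0.62 and 1.37 FPKM in the summer berries. VIT_205s0020g02130, in contrast, was called at no stage in ‘Victoria’. Over the 3 stages its season effects were 0.34 ± 0.16, 0.28 ± 0.16 and 0.25 ± 0.16, with adjusted p-values of 0.0879, 0.161 and 0.207, and winter and summer libraries overlapped at the first pair of stages.

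The other calls of ‘Victoria’ were of HDR, HDS, DXR and DXS VIT_204s0008g04970. HDR was called higher in winter at E-L 36, with 482, 497 and 480 FPKM in the winter berries and 247, 215 and 235 FPKM in the summer berries, a log2 fold change of 1.10 ± 0.13 (adjusted p = 1.21e-07). At E-L 38 HDR had 501, 513 and 515 FPKM in the winter berries, against 216, 228 and 214 FPKM in the summer berries (1.20 ± 0.14, adjusted p = 1.93e-08). These 2 differences of HDR stayed past the threshold under every alternative tried. At E-L 38, HDS had 96.8, 80.8 and 82.2 FPKM in the winter berries and 44.0, 44.4 and 39.3 FPKM in the summer berries.

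The log2 fold changes at E-L 38 in ‘Victoria’ were 1.01 ± 0.08 (adjusted p = 3.09e-11) for HDS, 1.08 ± 0.15 (adjusted p = 6.74e-07) for DXR and 1.15 ± 0.13 (adjusted p = 1.18e-08) for DXS VIT_204s0008g04970. All 3 are close to 2-fold, and each fell short of it under some alternatives, although no adjusted p rose above 0.05. HDS was at 0.98 with no low count filter and with at least 10 counts required in every library, at 0.97 after thinning to the lowest total, at 0.95 without replicate 3 of the summer berries and at 0.99 without replicate 1 of the winter berries, and DXR was at 0.96 without replicate 3 of the summer berries. VIT_204s0008g04970 was at 0.99 without the libraries that were closest to another group. Below the threshold, VIT_204s0008g04970 was higher in winter with an adjusted p under 0.05 in the other 5 season comparisons as well, by 0.34 to 0.59. The smallest, 0.34 at harvest in ‘Muscat Hamburg’, had an adjusted p above 0.05 under 4 of 18 alternatives, up to 0.125. Each earlier stage of that variety passed 0.05 under 1 of 18 (0.0525 for E-L 35, 0.0533 for E-L 36). Those of ‘Victoria’ stayed under 0.05 throughout. CMK showed season effects between -0.24 and 0.12, of which only -0.24 ± 0.09 at E-L 36 in ‘Muscat Hamburg’ had an adjusted p under 0.05 (0.0265), which was above 0.05 under 9 of 18 alternatives.

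**Figure D4:**
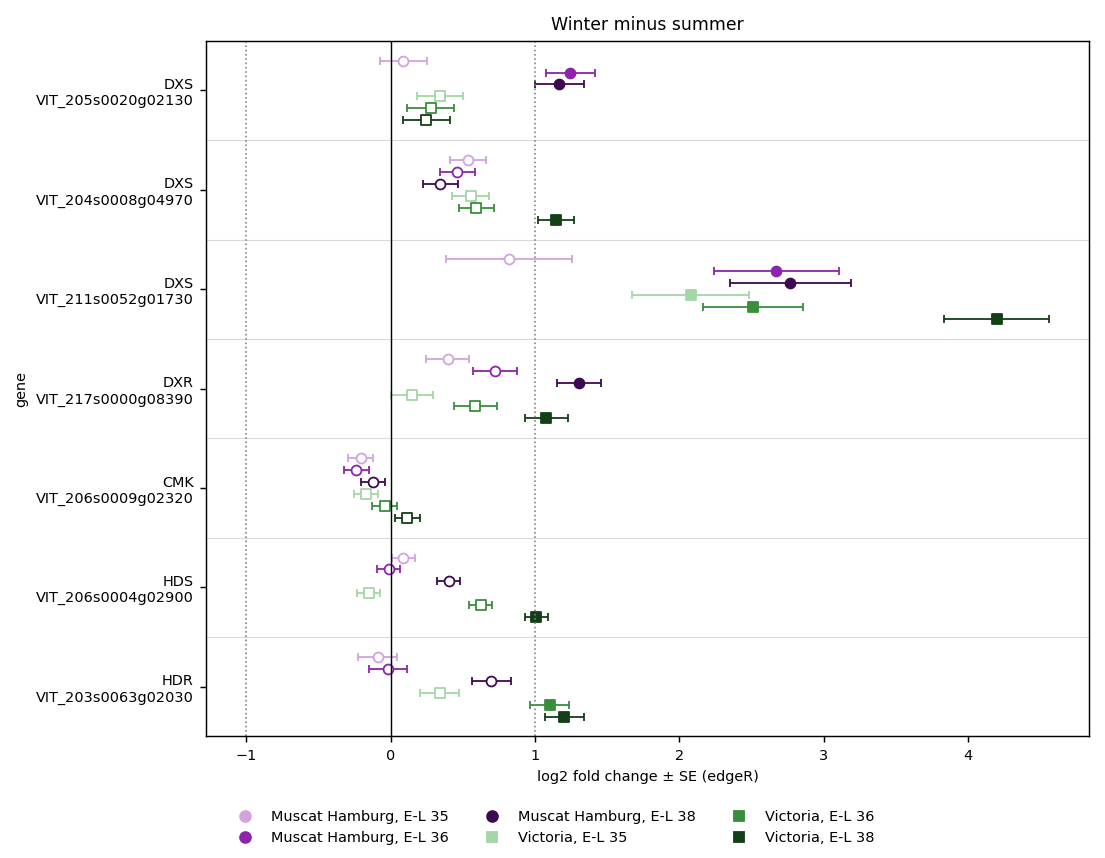
Log2 fold change of winter minus summer ± SE (x axis; dotted lines mark 2-fold) for the 7 members tested (y axis) in each variety and stage; filled symbols passed an adjusted p of 0.05 and a 2-fold difference. VIT_205s0020g02130 passed at E-L 36 and E-L 38 in ‘Muscat Hamburg’ (1.25 and 1.17), HDR passed at E-L 36 and E-L 38 in ‘Victoria’ (1.10 and 1.20), and CMK stayed between -0.24 and 0.12.

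Whether the season effect differed between the varieties was tested as the effect in ‘Muscat Hamburg’ minus the effect in ‘Victoria’. No member had an adjusted p under 0.05 at E-L 35. At E-L 36, 1 of 7 members was called, HDR, whose season effect was -0.02 in ‘Muscat Hamburg’ and 1.10 in ‘Victoria’, a difference of -1.12 ± 0.19 (adjusted p = 0.000115; all genes called lower 4.16%). Without replicate 2 of the ‘Muscat Hamburg’ summer berries, the library with the highest HDR level in its group, the difference was -0.97 (adjusted p = 0.000514). At E-L 38 the difference of HDR was -0.50 ± 0.19 (adjusted p = 0.0654). HDS differed in the same direction, by -0.64 ± 0.11 (adjusted p = 0.000186) at E-L 36 and by -0.61 ± 0.11 (adjusted p = 0.00036) at E-L 38. For VIT_205s0020g02130 the season effect was larger in ‘Muscat Hamburg’, by 0.97 ± 0.24 (adjusted p = 0.00439) at E-L 36 and by 0.92 ± 0.23 (adjusted p = 0.00671) at E-L 38, just short of 2-fold. Without the 3 libraries closest to another group the value at E-L 36 was 0.53 (adjusted p = 0.0366). For the copy VIT_204s0008g04970 it was smaller in ‘Muscat Hamburg’ at E-L 38, with a difference of -0.80 ± 0.17 (adjusted p = 0.0019). For DXR the season effects of the varieties differed by 0.14 to 0.25, with adjusted p-values between 0.448 and 0.702 at the 3 stages.

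Between the first stages, E-L 35 and E-L 36, the transcript of VIT_205s0020g02130 was less abundant at the later one with an adjusted p under 0.05 in every crop. The step was called in the ‘Muscat Hamburg’ summer berries, with means of 25.4 ± 1.34 FPKM at E-L 35 and 7.39 ± 1.80 FPKM at E-L 36 and a log2 fold change of -1.66 ± 0.17 (adjusted p = 1.82e-07; all genes called lower 4.78%). In the other crops it was -0.50 ± 0.16 (adjusted p = 0.0183) in the ‘Muscat Hamburg’ winter berries, -0.92 ± 0.16 (adjusted p = 4.3e-05) in the ‘Victoria’ winter berries and -0.86 ± 0.16 (adjusted p = 0.000102) in the ‘Victoria’ summer berries. Of the 19736 genes tested, 1747, 2416 and 1882 were called lower at this step in these crops in turn. How many genes were less abundant in every crop was not counted. The adjusted p in the ‘Muscat Hamburg’ winter berries was above 0.05 under 2 of 18 alternatives, up to 0.0572. Without the libraries closest to another group the ‘Victoria’ summer step was -1.15 (adjusted p = 7.59e-08) and past the threshold. Between E-L 36 and E-L 38 no crop had an adjusted p under 0.05 for this gene.

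The copy VIT_211s0052g01730 moved the other way. Its first step was called higher in the ‘Victoria’ winter berries (2.18 ± 0.35, adjusted p = 1.23e-05; all genes called higher 6.65%), the ‘Victoria’ summer berries (1.75 ± 0.40, adjusted p = 0.000899; all genes 7.08%; 0.68 and adjusted p = 0.0149 with limma on log2(FPKM + 1)) and the ‘Muscat Hamburg’ winter berries (1.56 ± 0.38, adjusted p = 0.00187; all genes 5.6%). The last call rested on replicate 3 at E-L 36, at 4.22 FPKM, without which the step was 0.86 (adjusted p = 0.0615). In the ‘Victoria’ winter berries the level rose again at the second step, by 1.33 ± 0.31 (adjusted p = 0.00296; all genes called higher 1.41%), which made means of 2.03 ± 1.08, 8.01 ± 0.484 and 20.7 ± 1.59 FPKM at the 3 stages. In the ‘Muscat Hamburg’ summer berries the means stayed at 0.51 ± 0.147, 0.383 ± 0.0351 and 0.417 ± 0.0987 FPKM.

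The winter group means of HDS and HDR were highest at harvest in both varieties. In the ‘Muscat Hamburg’ winter berries HDS had means of 72.1 ± 1.36, 59.2 ± 7.17 and 90.1 ± 5.18 FPKM at the 3 stages, and HDR had 309.7 ± 4.13, 353 ± 30.7 and 497 ± 67.6 FPKM. The second step was 0.61 ± 0.08 (adjusted p = 2.25e-06) for HDS and 0.49 ± 0.13 (adjusted p = 0.00772) for HDR. The adjusted p of this HDR step was above 0.05 under 4 of 18 alternatives, up to 0.0601. In the ‘Victoria’ winter berries HDR took its step earlier, by 0.74 ± 0.13 (adjusted p = 5.82e-05) at the first. Its second step there was only 0.03 ± 0.13 (adjusted p = 0.898). In the ‘Victoria’ summer berries HDS was less abundant at the later stages, with means of 74.1 ± 1.75, 46.3 ± 2.80 and 42.6 ± 2.85 FPKM at the 3 stages and a first step of -0.47 ± 0.08 (adjusted p = 2.34e-05), short of 2-fold. In all, 4 of 56 stage tests of the members were called higher (7.14%, all genes 3.48%) and 1 was called lower (1.79%, all genes 5.88%). At the second step of the ‘Victoria’ summer berries, which holds 2 of the libraries closest to another group, 0.218% of all genes were called; the part of these libraries in that count was not tested.

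The genes whose pattern over the 36 libraries was most like that of VIT_205s0020g02130 were VIT_205s0051g00870 (Pearson r of log2(FPKM + 1) of 0.894), VIT_208s0007g06310 (0.888) and VIT_212s0028g03630 (0.878). For HDR they were VIT_209s0002g07530 (0.946), VIT_212s0035g02110 (0.914) and VIT_206s0004g05560 (0.903). None of the other 7 members was among them, and other genes of the pathway were not looked for. These coefficients describe likeness across libraries that share groups, and no p-value belongs to them.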

How the data were processed

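The labels name the variety, season, stage and replicate of each of the 36 libraries. Single reads were aligned by the authors to the grapevine genome. The labels name Bowtie, and the counting program is not given in the sources used here. The deposited lists give an estimated count per gene, which the authors did not normalize, and a deposited FPKM value. Genes absent from a list were set to 0. A further deposited table held 36 FPKM columns whose headings matched no label and which were not used.

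The estimated counts, rounded to whole numbers, entered edgeR 4.0.16 (R 4.3.3) with filterByExpr, TMM, a quasi-likelihood fit of the 12 groups (common dispersion 0.0294) and Benjamini-Hochberg adjustment over 19736 of 28119 genes. The 23 contrasts comprised 6 variety, 6 season, 3 variety by season and 8 stage comparisons. Each SE was taken from the fold change on the log2 scale and the F statistic (its size over the root of F). Alternatives were DESeq2 1.42.0, limma 3.58.1 on log2(FPKM + 1) and log2(FPKM + 0.1), other scalings, filters and thresholds, thinning to the lowest total, fits of only the libraries compared, a replicate block, and leaving out each library in turn. The steps were tested on simulated data. The total per library, 5624449 to 18606068 estimated counts, sets the counting error, which was largest for VIT_211s0052g01730 and VIT_211s0052g01780.

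All 8 members were named by ID, together with the 3 genes most correlated with VIT_205s0020g02130 and with HDR. The members, lists and tests were chosen with earlier results of these data known. Lists of the other pathway genes and of seed and green plastid markers, planned by annotation text, were left out because the gene table at hand matched none of the IDs. For the same reason no sequence is shown. The anthocyanin genes came from the annotation of the study. Same-numbered libraries did not deviate together: 2 of 36 same-number pairs correlated above 0.1, so the numbers were not taken as pairs.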

Additional observations from a re-analysis of the deposited data

Results flagged for a closer look

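In 6 of 21 tests the season effect of a member differed between ‘Muscat Hamburg’ and ‘Victoria’ with an adjusted p of at most 0.05 (edgeR). The share of all genes past this limit is not given here, so the count cannot be set against it. With the 2-fold condition, 1 of 21 member tests was called lower (4.76%, all genes 3.8%) and 0 were called higher (all genes 5.54%). For DXS VIT_205s0020g02130 the winter minus summer effect of ‘Muscat Hamburg’ exceeded that of ‘Victoria’ by 0.97 ± 0.24 at E-L 36 and by 0.92 ± 0.23 at E-L 38. The value at E-L 36 was 0.53 without the 3 libraries closest to another group. For DXS VIT_204s0008g04970 the difference was -0.80 ± 0.17 at E-L 38. At E-L 36 it was -0.64 ± 0.11 for HDS and -1.12 ± 0.19 for HDR. HDS was also at -0.61 ± 0.11 at harvest. Of these, the difference of HDR was over 2-fold.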

How the results depend on the processing

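Of 25 member differences past the threshold, 7 stayed past it under all alternatives, 8 (all VIT_211s0052g01730) stayed past it except under the filter of 10 counts, which removes the gene, and 10 lost the call under at least 1; none of 75 differences followed changed sign as a call. Calls lower in ‘Muscat Hamburg’ numbered 6 and went to 2 when at least 10 counts were required in every library, a filter that removes VIT_211s0052g01730, and to 13 without the 2-fold condition, which also gave 11 calls higher. Calls higher in winter (13) became 7 with that filter, which also took HDS of ‘Victoria’ at E-L 38 under 2-fold, and 24 without the 2-fold condition, which also gave 1 lower. For variety by season, 1 call higher appeared with RLE size factors, library size alone, DESeq2, the filter of 10 counts and limma on log2(FPKM + 0.1), and 2 without the 2-fold condition. Calls lower there were 2 with both limma fits and with only the libraries compared, and 4 without the 2-fold condition. Stage calls higher were 0 with the filter of 10 counts, 2 with limma on log2(FPKM + 1) and 13 without the 2-fold condition. Stage calls lower were 3 with library size alone and both limma fits, 7 without the 2-fold condition and 2 without the libraries closest to another group, an alternative chosen after the data were seen. Leaving out 1 library at a time gave 0 to 0 variety calls higher and 5 to 7 lower, 12 to 14 season calls higher and 0 to 0 lower, 0 to 1 and 0 to 2 for variety by season, and 3 to 5 and 1 to 2 for the stages. The summer difference of VIT_211s0052g01730 at E-L 38 was the least stable, with -0.54 (adjusted p = 0.0624) by limma on log2(FPKM + 1) and -1.20 (adjusted p = 0.116) after thinning. The cause of these changes was not tested. With a replicate block there were 6 variety calls lower, 13 season calls higher, 1 variety by season call lower, and 4 stage calls higher and 1 lower, and 0 of the 75 differences changed their call. With library size alone, 888 genes were higher and 3536 lower in ‘Muscat Hamburg’ at E-L 35 of summer, against 1334 and 2416 with TMM.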
